A study of Mus musculus with 6 samples.

Results

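Lipopolysaccharide, the outer membrane lipid of Gram-negative bacteria, is recognised by a small set of proteins, and the genes of 10 of them are described here: Tlr4, Ly96, Cd14, Lbp, Cd180, Ly86, Tlr2, Myd88, Ticam2 and Aoah. They were chosen by name, with the difference between the leukemias already known, so that difference is given below as a description without a test. All 10 were measured, each by 1 probe set with a single symbol, among 22180 genes in all. Expression was measured on 6 arrays of sorted bone marrow cells from mice with leukemia, 3 from chronic myeloid leukemia (CML) and 3 from acute myeloid leukemia (AML). All mice carried Col2.3 GFP, a reporter driven by part of the Col1a1 promoter that marks cells of the bone-forming lineage. The sorted cells are osteoblastic in the sample labels and stromal in the titles. The groups come from the titles and the design text; a further label, the source name, reads CML on every sample, so each direction rests on the titles. Age, strain and how the leukemias were made are not given in the sources used here, and no label ties the arrays to different animals, so the spread between arrays may be technical.

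In the textbook pathway, the plasma protein LBP extracts lipopolysaccharide from bacterial membranes and passes it to CD14, which hands it to MD-2, the product of Ly96, bound to TLR4. TLR4 then signals through the adaptor MyD88 and, after uptake into endosomes, through TRAM, the product of Ticam2. CD180 is a relative of TLR4 that lacks its signalling domain and is bound to MD-1, the product of Ly86, a homologue of MD-2. The pair is best known from B cells, macrophages and dendritic cells. TLR2 recognises bacterial lipoproteins, and AOAH, made by myeloid cells among others, removes acyl chains from lipopolysaccharide and so inactivates it.

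The arrays and their marker genes set the frame for these values. The median intensity of the 39721 probe sets ran from 18.6 to 20.4 on the CML arrays and from 17.2 to 17.8 on the AML arrays, which is 4.11 to 4.35 on the log2 scale. A gene near that level is called dim here, since no detection p-value was used. Genes of bone-forming cells were present, with Col1a1 at 8.71 to 11.95 on the CML arrays and 7.27 to 9.87 on the AML arrays (log2), and so were genes of blood cells. Ptprc, the leukocyte antigen CD45, stood at 8.27, 4.96 and 6.16 on CML 1, 2 and 3 and between 8.17 and 9.30 on the AML arrays. Fewer cells of a type and less RNA per cell cannot be told apart in such bulk samples.

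The genes were not alike in their difference between the leukemias. Ly86 and Aoah were dim in CML and 3.49 and 3.51 higher in AML on the log2 scale, Lbp was 2.43 higher, or 5.39-fold, Cd180 was 2.12 higher, and Tlr4, Ly96, Tlr2 and Ticam2 overlapped between the groups. Of the 10 genes, 9 were higher in AML by value and Ticam2 was lower. In 6 of them, Ly86, Aoah, Lbp, Cd180, Cd14 and Myd88, every AML array lay above every CML array. Over all 22180 genes, 13.3% had their groups apart in that direction, and nothing is read from the 2 figures since the genes were picked with the contrast known. The median difference of the 10 genes was 1.11 on the log2 scale, and that of all genes was -0.11.

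**Figure D1:**
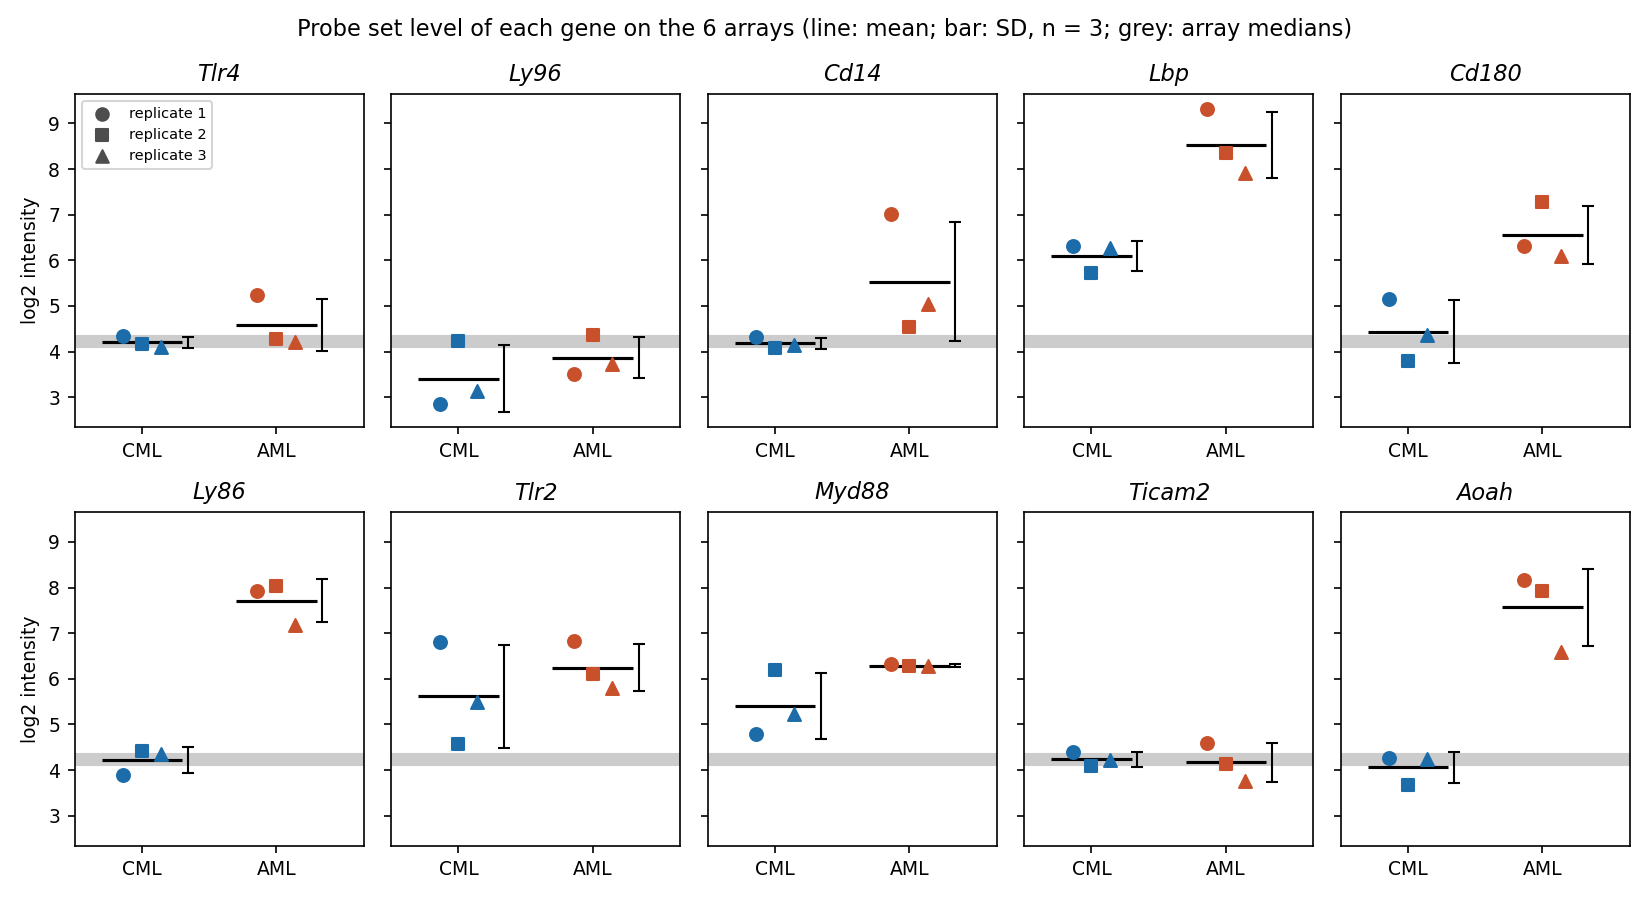
The log2 intensity of each of the 10 genes on the 3 CML arrays (blue) and the 3 AML arrays (orange), with the replicate number as the marker shape, the mean as a line, the SD as a bar and the range of the array medians in grey. Ly86 and Aoah sit near the grey band on all CML arrays and between 6.60 and 8.17 on the AML arrays, while Tlr4 and Ticam2 sit near the band in both groups.

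The upstream ends of 3 genes on chromosome 13 are shown because these genes, the CD180 pair and the detoxifying enzyme, were higher together in AML. Each is the 250 bases before an annotated transcript start, on the plus strand of GRCm38.p6, from a RefSeq promoter table in which 5 of the 10 genes were matched. Capitals mark GGAA or its reverse TTCC, that is both strands, the core bound by ETS factors such as PU.1 of myeloid cells and B cells.
Ly86, chr13:37345095-37345344: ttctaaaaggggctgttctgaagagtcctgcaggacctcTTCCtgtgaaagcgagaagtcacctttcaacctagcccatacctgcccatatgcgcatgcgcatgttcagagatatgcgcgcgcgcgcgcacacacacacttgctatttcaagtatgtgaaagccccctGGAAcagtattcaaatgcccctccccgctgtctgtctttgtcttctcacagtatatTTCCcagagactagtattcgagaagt
Aoah, chr13:20793863-20794112: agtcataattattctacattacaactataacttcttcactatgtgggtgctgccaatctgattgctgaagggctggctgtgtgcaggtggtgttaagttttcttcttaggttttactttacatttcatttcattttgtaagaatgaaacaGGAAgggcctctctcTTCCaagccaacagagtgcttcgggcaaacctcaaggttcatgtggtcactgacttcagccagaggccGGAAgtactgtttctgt
Cd180, chr13:102693297-102693546: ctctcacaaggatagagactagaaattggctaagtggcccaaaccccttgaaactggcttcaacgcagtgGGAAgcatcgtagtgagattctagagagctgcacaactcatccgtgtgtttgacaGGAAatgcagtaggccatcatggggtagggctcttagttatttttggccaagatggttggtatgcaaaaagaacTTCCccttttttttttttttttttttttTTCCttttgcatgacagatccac
The core matched 3 times in Ly86, 3 times in Aoah and 4 times in Cd180; of the 2 annotated Cd180 starts the window before the first is shown. It was present in 93.4% of 32817 promoter windows of the same length, with a median of 3 matches. The longer PU.1-type form GAGGAA (23.3% of windows), which contains the ETS core, and the AP-1-type TGANTCA (6.75%) were in none of the 3 windows. The C/EBP-type TTGCNNAA (9.57%), likewise sought on both strands, was found once, in Aoah, 189 bases before the start.

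Among the proteins that deliver the lipid, Lbp was measured well above the array medians in both groups. It stood at 6.32, 5.71 and 6.27 on CML 1, 2 and 3 and at 9.32, 8.34 and 7.92 on AML 1, 2 and 3 (log2 intensity). The groups were apart by 1.60 between their nearest arrays, and the means were 6.10 ± 0.33 and 8.53 ± 0.72 (SD, n = 3 each), a difference of 2.43. LBP is known mainly as an acute-phase protein of the liver. Bpi, its neighbour in the RefSeq gene table, which encodes a granule protein of the same family that binds and neutralises the lipid, was dim on every array, at 2.99 to 3.16 on the CML arrays and 2.89 to 3.07 on the AML arrays.

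Cd14, the carrier of the lipid at the cell surface, was dim on all CML arrays and high on a single AML array. Its log2 values were 4.32, 4.09 and 4.15 on CML 1, 2 and 3, against 7.01, 4.54 and 5.04 on AML 1, 2 and 3. AML 1 thus lay 1.97 above the next AML array, while AML 2 lay only 0.22 above the highest CML array. The difference was 1.34 as measured and 0.60 without AML 1, with an SD of 1.31 within AML.

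The receptor of the classical pathway and its partner were dim in both groups. Tlr4 stood at 4.34, 4.16 and 4.10 in CML and at 5.24, 4.29 and 4.21 in AML, so that only AML 1 lay above the CML range. Its difference was 0.38, and 0.05 without AML 1. Ly96 stood at 2.85, 4.24 and 3.13 in CML and at 3.50, 4.36 and 3.72 in AML. It was below the array median on CML 1, CML 3, AML 1 and AML 3, and the difference of 0.45 was smaller than the SD of 0.73 within CML. No change can be read from probe sets at this level, which does not show that the genes were not expressed.

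Its relative CD180 and the partner of CD180 behaved otherwise. Cd180 stood at 5.16, 3.79 and 4.35 on CML 1, 2 and 3 and at 6.31, 7.28 and 6.09 on AML 1, 2 and 3. The groups did not overlap, with means of 4.44 ± 0.69 and 6.56 ± 0.63 (SD, n = 3 each), a difference of 2.12 that ran from 1.76 to 2.49 with 1 array left out. Ly86 stood at 3.89, 4.41 and 4.35 in CML, all within 0.37 of the array median, and at 7.92, 8.04 and 7.17 in AML. The lowest AML array lay 2.76 above the highest CML array. The means were 4.22 ± 0.28 and 7.71 ± 0.47, a difference of 3.49. Cd180 was dim on CML 2 and CML 3. No fold is given for Ly86 or Cd180, since their CML levels were not shown to lie above background.

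Aoah, the enzyme that detoxifies the lipid, followed Ly86. It stood at 4.27, 3.67 and 4.24 in CML and at 8.17, 7.93 and 6.60 in AML. All CML arrays were dim and AML 3 was the lowest AML array, as it was for Ly86, Lbp, Cd180 and Tlr2. The means were 4.06 ± 0.34 and 7.57 ± 0.85 (SD, n = 3 each), a difference of 3.51, again over a CML level not shown to lie above background.

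Tlr2, the lipoprotein receptor, was spread most widely within CML. It stood at 6.81, 4.56 and 5.49 on CML 1, 2 and 3 and at 6.82, 6.11 and 5.81 on AML 1, 2 and 3. CML 1 matched AML 1 to within 0.02, and the difference between the means, 0.63, was smaller than the SD of 1.13 within CML. It was 0.10 without CML 2 and 1.22 without CML 1.

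The adaptors differed from one another. Myd88 stood at 4.79, 6.20 and 5.23 in CML and at 6.32, 6.28 and 6.28 in AML. The AML arrays were nearly level, at an SD of 0.02, and CML 2 came within 0.08 of them, so the groups were only just apart. Its difference was 0.88. Ticam2 was dim, at 4.40, 4.08 and 4.23 in CML and 4.60, 4.14 and 3.76 in AML, with a difference of -0.07 that turned to values from 0.08 to 0.14 under 3 other scalings of the arrays. Those scalings moved the median difference of all genes from -0.11 to between -0.03 and 0.04.

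**Figure D2:**
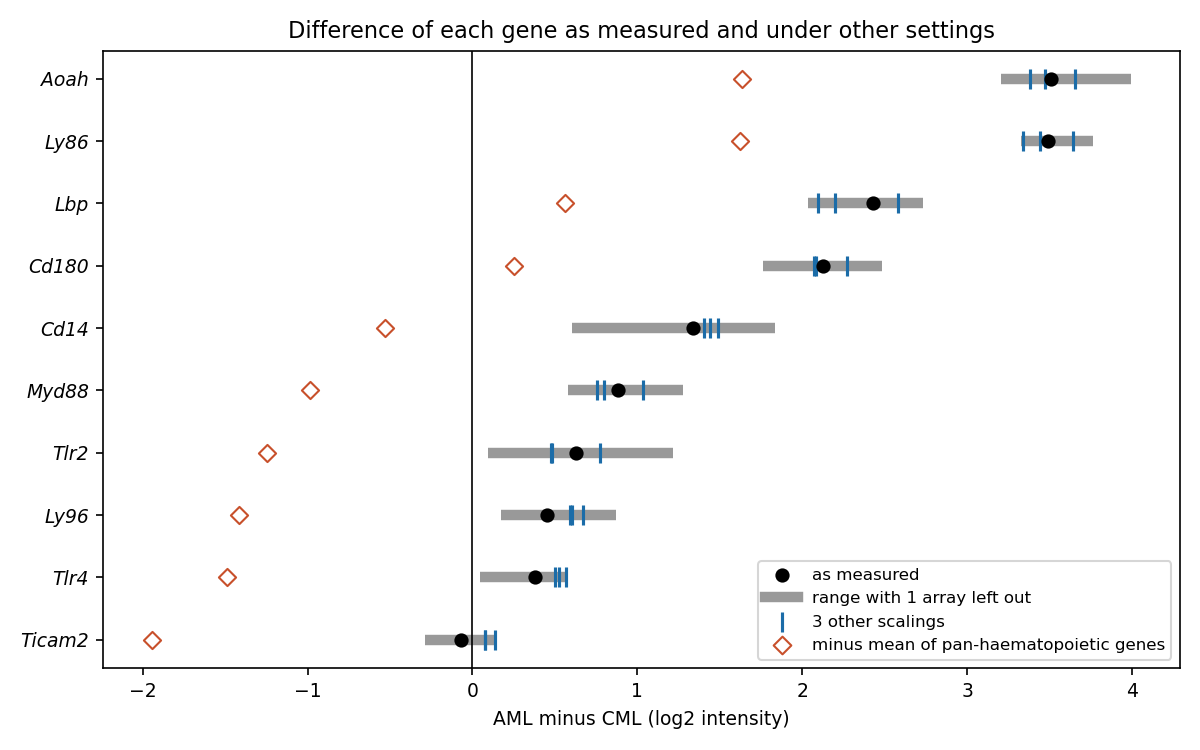
The AML minus CML difference of each gene in log2 intensity (black), its range with 1 array left out (grey bar), its value under quantile normalization, median centring and cyclic loess (blue ticks), and its value after the mean of 10 pan-haematopoietic genes was subtracted on each array (open diamonds). Ly86 and Aoah stay above 3.2 on all bars and ticks, while the diamonds of Cd14, Myd88, Tlr2, Ly96, Tlr4 and Ticam2 lie below 0.

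Markers of blood cells moved in the same direction. The 10 genes listed as pan-haematopoietic (Ptprc, Vav1, Coro1a, Laptm5, Rac2, Ptpn6, Lcp1, Cd53, Tyrobp and Fcer1g) were all higher in AML by value. Tyrobp and Fcer1g are not markers of all blood cells, so the list mean does not measure every blood lineage alike. Tyrobp differed most, by 2.60. Vav1 and Ptpn6 passed in limma (log2 differences 1.90 and 2.43, adjusted p = 0.0437 and 0.0298). Over all genes 1.91% passed in either direction, and none did without CML 3, without AML 1 or without AML 2. The loss of a call there is not a loss of the difference. Ptpn6 stood at 2.51 without CML 3, 2.29 without AML 1 and 2.29 without AML 2. Of the 10 genes none passed after quantile normalization or cyclic loess, 4 passed after median centring or without CML 1, and 1 passed without AML 3. Their summed intensity was 1625 to 5389 in CML and 7137 to 11971 in AML, none was at 0, and their mean was 1.87 higher on the log2 scale. With that mean subtracted on each array, a step added with the values in view, Ly86 and Aoah stood at 1.62 and 1.64, Lbp at 0.56 and Cd180 at 0.25. Cd14 stood at -0.53, Myd88 at -0.99, Tlr2 at -1.24, Ly96 at -1.42, Tlr4 at -1.49 and Ticam2 at -1.94.

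CML 1 and AML 3 were the arrays of the 2 groups nearest in these markers, chosen after the values were seen, and they were not matched. Ptprc stood at 8.27 and 8.17, but 7 of the 10 genes were higher on AML 3, among them Tyrobp at 9.51 and 10.72 and Ptpn6 at 6.93 and 8.45, and the mean of the list centred over the arrays was 0.003 and 0.41. The 2 arrays also differed in the lineage lists given below. The centred mean on CML 1 and AML 3 was 1.85 and -0.90 for B lineage genes. For genes of myeloid progenitors and primary granules it was -1.70 and 0.96. Ly86 stood at 3.89 on CML 1 and 7.17 on AML 3, Aoah at 4.27 and 6.60, and Lbp at 6.32 and 7.92. Cd180 differed less, at 5.16 and 6.09, and Tlr2 was higher on CML 1, at 6.81 against 5.81.

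The markers of single blood lineages did not all move alike. All 6 marker genes of myeloid progenitors and their primary granules rose in limma, with a median of 3.36 and summed intensities of 663 to 941 in CML and 4685 to 10944 in AML. Among them were Elane, neutrophil elastase, at 3.85 ± 0.35 (SE; adjusted p = 0.0151), and Fcnb, ficolin B, at 3.65 ± 0.38 (SE; adjusted p = 0.0203). Of 9 monocyte and macrophage genes 8 were higher by value and 3 rose, with a median of 1.84. Their summed intensities were 1348 to 3619 in CML and 4662 to 8707 in AML. The groups were apart with AML higher in 5 of these genes and with AML lower in 1, Fcgr1. Fcgr1 stood at 5.10 to 5.24 on the CML arrays and 4.60 to 4.76 on the AML arrays, a difference of -0.48 (limma adjusted p = 0.121). Cd68, a lysosomal protein of macrophages, stood at 2.80 and Mpeg1, their pore-forming perforin-2, at 2.67 (limma adjusted p = 0.0477 and 0.0479), and Csf1r, the receptor of their growth factor, at 1.77 without passing (limma adjusted p = 0.0659). The 3 calls of this list became 1 without CML 1 or without CML 2 and 0 after quantile normalization or cyclic loess, and the 6 of primary granules became 1 after cyclic loess, without ending under quantile normalization (4) or with CML 2 left out (4). No list contained a marker at 0.

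The other lineages held no call in limma. Of 9 neutrophil genes 6 were higher by value, with a median of 0.58 and summed intensities of 5544 to 11586 in CML and 10282 to 12021 in AML. The groups were apart with AML higher in 2 of these genes and with AML lower in 1, Retnlg, which moved furthest. Retnlg stood at 9.04, 7.36 and 9.37 on CML 1, 2 and 3 and at 7.29, 6.83 and 6.66 on AML 1, 2 and 3. Its difference of -1.66 did not pass (limma adjusted p = 0.152), but it did without CML 2. All 8 B lineage genes measured stood lower in AML, at a median of -0.80 and summed intensities of 152 to 2161 in CML and 166 to 376 in AML. Among them Cd79a, part of the B cell receptor, stood at 8.84, 3.91 and 6.26 on CML 1, 2 and 3 and at 3.37, 4.12 and 3.46 on AML 1, 2 and 3, so its groups overlapped. Its partner Cd79b was not dim in AML, at 6.72, 7.14 and 6.25. Of 6 dendritic cell genes 5 stood lower, at a median of -0.42 and summed intensities of 399 to 530 in CML and 245 to 339 in AML. All 8 osteoblast genes measured stood lower, at a median of -1.14 and summed intensities of 2547 to 11684 in CML and 1178 to 4342 in AML, and Bglap, which encodes osteocalcin, stood at -1.17 (limma adjusted p = 0.374). The part of any of these cell types in the differences of the 10 genes was not tested.

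**Figure D3:**
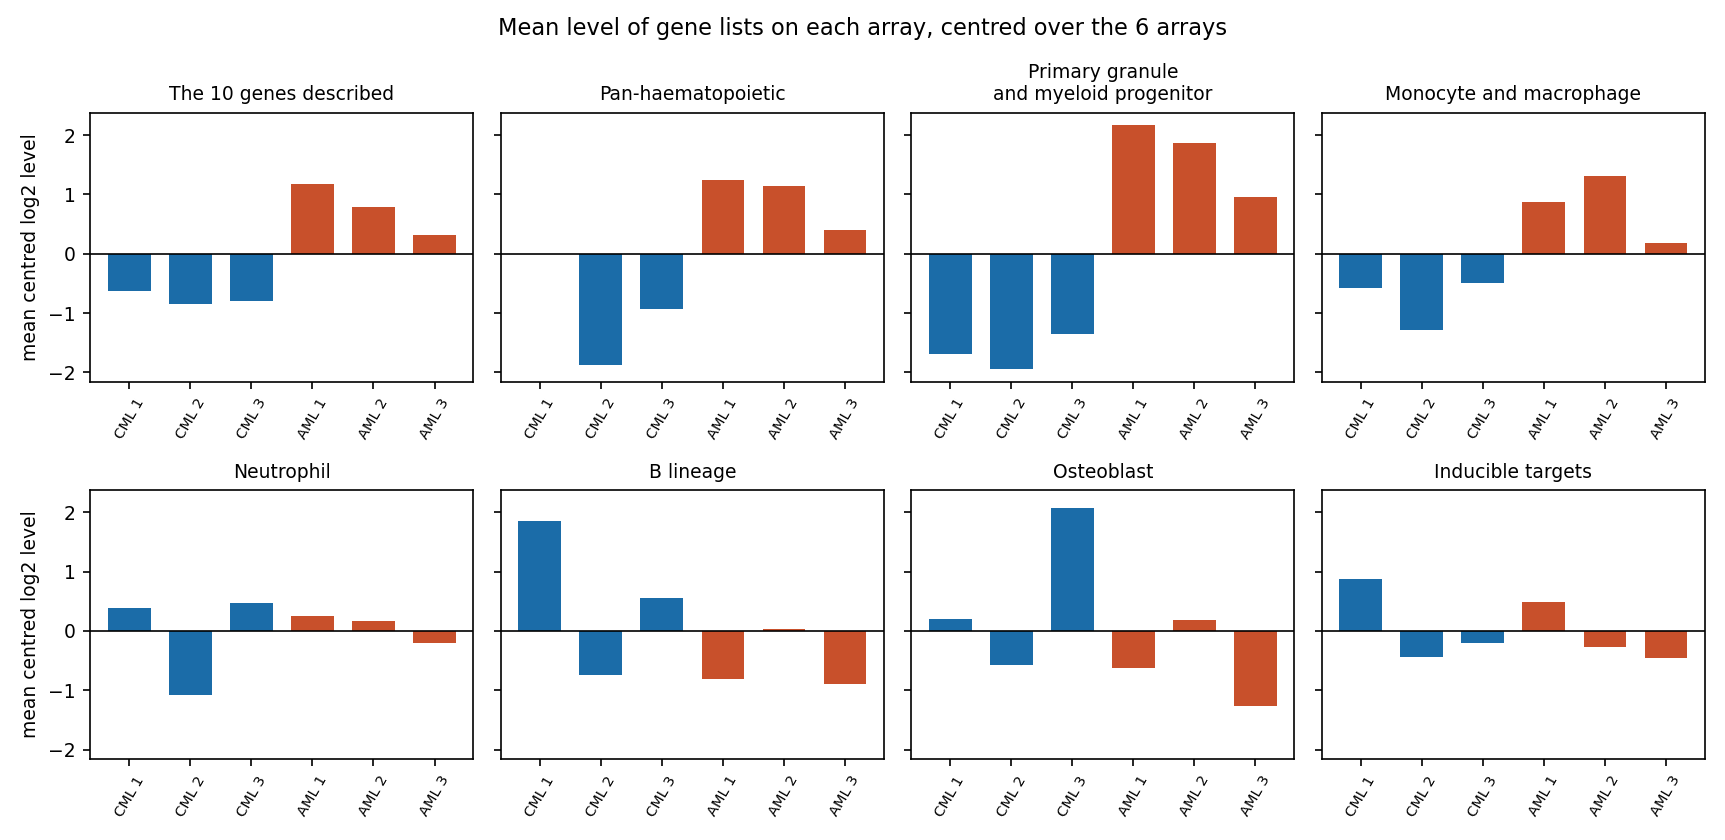
The mean log2 level of a gene list on each array, centred over the 6 arrays, for the 10 genes described, 6 marker lists and the inducible targets, with CML in blue and AML in orange. The 10 genes lie between -0.85 and -0.63 in CML and between 0.31 and 1.18 in AML, the pan-haematopoietic bar of CML 1 is at 0.003, and the highest bar of the inducible targets is CML 1, at 0.88.

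Genes whose levels followed those of Tlr4, Cd180 and Aoah most closely over the 6 arrays were sought among all genes. The measure was the root mean square difference between log2 profiles centred over the arrays, and it is a description of 6 arrays that share their grouping. Nearest to Aoah were F10, which encodes coagulation factor X (0.25), Abca13, a lipid transporter (0.26), and Elane (0.27), against 1.83 for the profile of Aoah itself. Nearest to Cd180 were Milr1, an inhibitory mast cell and myeloid receptor (0.24), Dock2, a leukocyte activator of Rac (0.26), and Ctss, the lysosomal protease cathepsin S (0.27), against 1.19. Nearest to Tlr4 were Slc23a2, a vitamin C transporter (0.09), Sipa1l1 (0.10) and Bcl2l11, the death inducer BIM (0.10), against 0.39, a profile that AML 1 dominates. Among the 10 genes themselves the closest pairs were Tlr4 and Ticam2 (0.27), Ly96 and Myd88 (0.35) and Ly86 and Aoah (0.40).

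The rest of the pathway was counted in 9 lists of 107 genes, of which 98 were measured and 9 were not analysed here. In limma 2 of the 98 rose and none fell. That is 2.04% called, near the 1.91% of all genes (1.83% rose and 0.0812% fell). At an unadjusted p under 0.05 in limma the count was 33 of 98, or 33.7%, against 21.5% of all genes. The lists were chosen with earlier results of these data known, so no enrichment is read from this share or from the values that follow. The median difference of the 98 was 0.32, against -0.11 for all genes. Over the upper 50% of genes by mean level, which holds 73 of the 98, the median was 0.17. In 30 of the 98, or 30.6%, the AML arrays all lay above the CML arrays, where 13.3% of all genes did. In 10 of the 98 they all lay below, where 17.9% of all genes did.

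The calls were Tlr13 and Pycard. Tlr13, an endosomal receptor of bacterial ribosomal RNA, stood at 3.45, 3.51 and 3.28 on CML 1, 2 and 3, below the array medians, and at 6.65, 6.56 and 5.88 on AML 1, 2 and 3, a rise of 2.95 ± 0.23 (SE; limma adjusted p = 0.0151). It was the only call among the 10 other Toll-like receptors, of which 8 were higher by value and 5 were below the array median on every array. Pycard, the inflammasome adaptor ASC, stood between 5.91 and 6.03 on the CML arrays and at 7.75, 7.16 and 7.66 in AML, a rise of 1.54 ± 0.19 (SE; limma adjusted p = 0.0248). It was the only call among 8 genes of the cytosolic sensing of lipopolysaccharide, which had a median of 0.67. The 2 calls became 0 without CML 3, without AML 1 or without AML 2, and 9 and 5 genes passed without CML 1 and without CML 2; without AML 3 Tlr13 passed and Pycard did not. After cyclic loess Pycard did not pass, and after median centring 8 genes did.

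**Figure D4:**
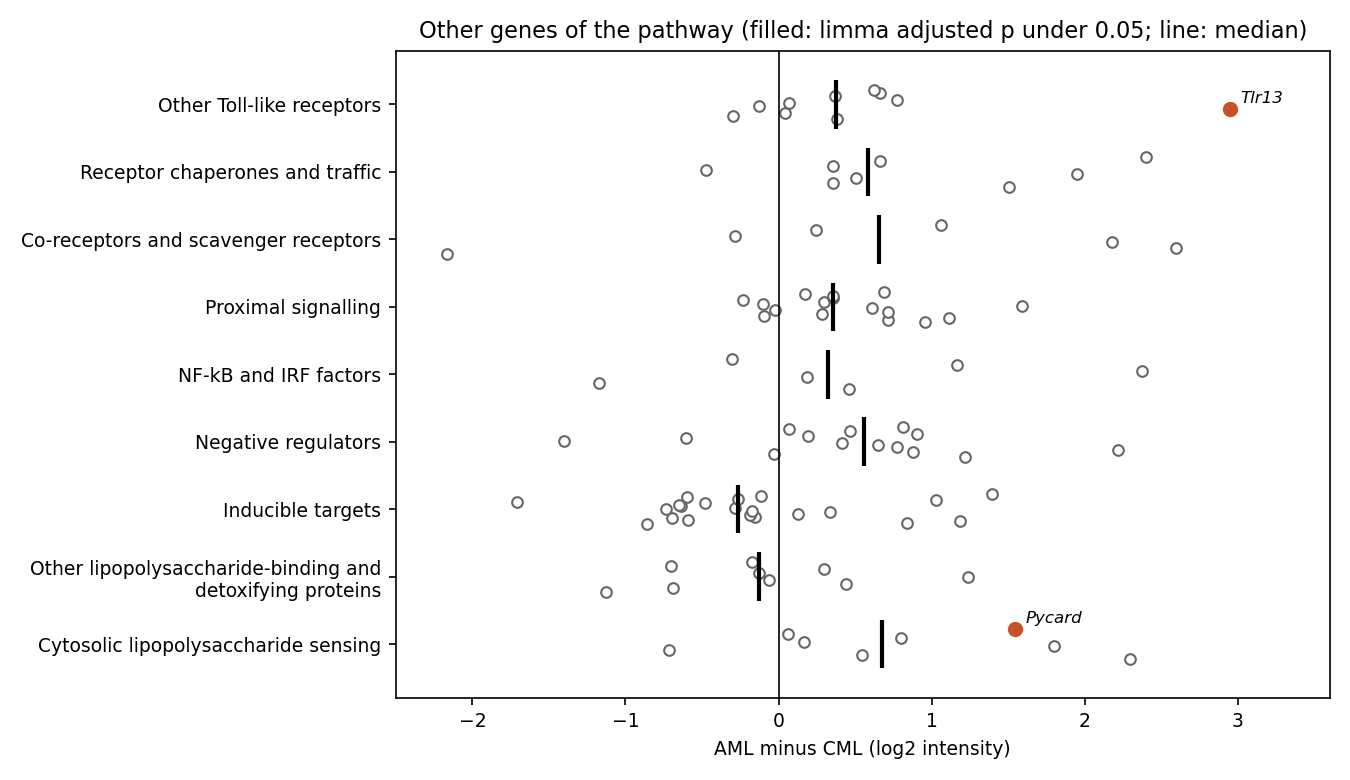
The AML minus CML difference in log2 intensity of the 98 other pathway genes in 9 lists, with the list median as a line and genes past a limma adjusted p of 0.05 filled. Tlr13 at 2.95 and Pycard at 1.54 are the filled points, and the inducible targets have their median below 0, at -0.27.

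Most receptor chaperones and co-receptors were higher by value, without a call. Of 8 chaperone and traffic genes 7 were higher, with a median of 0.58. Cnpy3, which folds TLR4 and other Toll-like receptors, stood at 1.51 ± 0.28 and Nrros, which binds Toll-like receptors and latent TGF-beta, at 1.95 ± 0.41 (SE; limma adjusted p = 0.0527 and 0.0701). Of 6 co-receptors and scavenger receptors 4 were higher, with a median of 0.65, and in these 4 the groups were apart. The other 2, Cd36 and Marco, had their groups apart with AML lower, at -2.16 and -0.28 (limma adjusted p = 0.107 and 0.306). Itgam and Itgb2, the chains of the phagocyte integrin CR3, stood at 2.60 ± 0.49 and 2.18 ± 0.44 (SE; limma adjusted p = 0.0553 and 0.0640). Both genes are also general markers of myeloid cells.

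The signalling genes differed less. Of 16 genes of proximal signalling 12 were higher by value, with a median of 0.35, and the lowest unadjusted p belonged to the tyrosine kinase Btk at 0.96 and the kinase Irak2 at 0.71 (limma adjusted p = 0.0884 and 0.152). Of 6 NF-kB and IRF factors 4 were higher, with a median of 0.32. Rela, the p65 subunit of NF-kB, stood at 1.16 and Irf7, an amplifier of type I interferon, at -1.18 (limma adjusted p = 0.108 and 0.103). Of 14 negative regulators 11 were higher, with a median of 0.56. Irak3, an inhibitor of Toll-like receptor signalling in monocytes and macrophages, stood at 2.21 ± 0.47 and Tnip1, a partner of A20, at 0.90 ± 0.27 (SE; limma adjusted p = 0.0741 and 0.144).

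Genes that the pathway is known to induce were not higher on the whole. Of 21 such genes 15 stood lower, with a median of -0.27, against -0.11 for all genes, and no call. That median is the value of Nos2, dim on every array at 3.91 to 4.44, so no lack of induction is read from it. In 4 of the 21 the groups were apart with AML lower and in 2 with AML higher, where 17.9% and 13.3% of all genes were. The 4 with AML lower, Il1a, Il6, Il10 and Il12b, were dim apart from Il6 on CML 1, so no fall is read from them. Of the 21 genes 4 were below the array median on every array. The dim Il10, the anti-inflammatory cytokine, stood at -0.74 ± 0.23 and Lcn2, the iron-scavenging lipocalin, at 1.03 ± 0.33 (SE; limma adjusted p = 0.157 and 0.159). Of 9 other proteins that bind or detoxify lipopolysaccharide 3 were higher, with a median of -0.13 and no call. Camp, the cathelicidin precursor of neutrophil granules, stood at 1.24 ± 0.42 and Apoe, apolipoprotein E, at 0.44 ± 0.18 (SE; limma adjusted p = 0.173 and 0.221).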

How the data were processed

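Total RNA of each sample was hybridised to its own Affymetrix array, per the labels. The deposited table holds linear intensity values, as judged from the values; background correction, summarisation and normalization are not given in the sources used here, and limma and lumi are named, without version or order, in the submitters' processing notes. Of 39721 probe sets, 23521 had 1 symbol in the platform annotation, 1814 several and 14386 none; 23328 were found in a RefSeq table of GRCm38.p6, which changed 0 symbols. The highest-mean probe set stood for a gene, which left 22180 genes. The log2 intensity (floor 1, reached by 0 values) entered lmFit and eBayes of limma 3.58.1 (R 4.3.3), two-sided, AML minus CML, Benjamini-Hochberg over all genes, threshold 0.05, with 4 residual degrees of freedom. In simulated data of 22180 genes, limma called 42% of 50 genes changed by 1 on the log2 scale and 94% of 50 changed by 2, with 6 false calls. Whether these rates hold for the arrays described here was not tested. The spread there could differ between the groups, as for Ptprc, with an SD of 1.67 in CML and 0.59 in AML.

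The members and lists were chosen with earlier results of these data known. Named were all members; up to 4 called genes per pathway list and 2 per marker list, or in a list without calls the 2 of lowest unadjusted p; Col1a1, Bglap, Ptprc and Csf1r, with 1 further gene that is not reported here; and the 3 nearest profiles of Tlr4, Cd180 and Aoah, passing over predicted, small RNA and olfactory or vomeronasal receptor genes. Bpi, Cd79b and others were named after their values were seen. Of the marker lists without a call, not every gene picked by lowest unadjusted p is given in the text. Alternatives were 3 scalings, only genes in the upper 50% by mean level, a gene's mean over probe sets, trend and robust eBayes, a replicate block, each array left out and, added after the data were seen, subtraction of the pan-haematopoietic mean. Lists of mesenchymal stroma and endothelium held no call, with medians of 0.40 and -0.25. The number of arrays limits the precision. Figures used matplotlib 3.10.9 under Python 3.11.15.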

Additional observations from a re-analysis of the deposited data

How the results depend on the processing

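The differences of the 10 genes moved by less than 1 SD between replicates in all 117 values from the alternatives other than the subtraction. Only the values under the 3 scalings could have moved further. Leaving out 1 of 3 arrays cannot shift a difference by 1 SD, and the other settings return the same difference. The count thus speaks only of the scalings. The median of the 10 genes, 1.11, was 0.75 without AML 1 and otherwise up to 1.33 with 1 array left out. After subtraction of the pan-haematopoietic mean the median was -0.76, with Cd14 at -0.53 and Myd88 at -0.99, which follows from a subtracted rise of 1.87. The median was not computed over the upper 50% of genes by mean level, which keeps members through the group where they are high. In limma 423 genes passed over the whole table (405 higher in AML), 93 after quantile normalization, 896 after median centring, 64 after cyclic loess and from 0 to 438 with 1 array left out; the count was 0 without CML 3, AML 1 or AML 2, where an unadjusted p under 0.05 held for 3533, 3048 and 3750 genes, and 279 without AML 3. Of the 98 pathway genes 2 passed, 8 after median centring, 1 after cyclic loess (Tlr13), 9 among the upper 50%, which holds 73 of them, and from 0 to 9 with 1 array left out. The cause of these shifts was not tested. With the replicate number as a block 0 of all genes and 0 of the pathway genes passed in limma, with 3711 and 31 at an unadjusted p under 0.05. Whether the numbers pair the arrays is not known. The correlations of same-numbered deviations were 0.24, -0.30 and -0.25, and 2 of 6 arrays, CML 1 and AML 1, were closest to their own number. With 3 arrays per group these values cannot show that no pairing exists. Dim probe sets limit what can be said, since signal was not set against background. Among them were those of Tlr4, Ly96 and Ticam2. In CML they included those of Ly86, Aoah and Cd14, and that of Cd180 on CML 2 and CML 3.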

Other observations

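Several inflammatory targets had their highest value on CML 1 or AML 1. These genes were chosen after their values were seen, and none passed in limma. On CML 1, Il6 stood at 7.34, against 2.87 to 3.51 on the other 5 arrays, and Il1b at 8.91, against 4.61 to 5.72 (log2 intensity). On AML 1, Tnf stood at 8.51, against 5.18 to 6.55 on the others, Ccl2, the monocyte chemokine, at 7.01, against 4.45 to 4.85, and Cxcl2, a neutrophil chemokine, at 8.99, against 4.82 to 7.47. The groups of Tnf and Il6 were nevertheless apart, with AML higher for Tnf and lower for Il6, and Cxcl2 was next highest on CML 1. For Il6 the nearest arrays were CML 3 at 3.25 and AML 3 at 3.11, both dim, so no difference is read between them. AML 1 is also the array on which 7 of the 10 genes of the report were highest.

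Cd36, a scavenger receptor and partner of TLR2, had its groups apart with AML lower, also chosen after its values were seen. It stood at 4.34, 6.37 and 6.40 on CML 1, 2 and 3 and at 3.38, 3.47 and 3.77 on AML 1, 2 and 3, a difference of -2.16 ± 0.55 that did not pass (SE; limma adjusted p = 0.107). Without CML 1 it did pass.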
